A study of Mus musculus with 10 samples.

Results

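The collagen genes were examined in embryonic mouse brain, with the chains that form fibrils set against those of basement membranes. Members were all protein-coding genes whose mouse symbol is Col, a number, a, and a number. This rule gave 44 genes among the 28059 gene identifiers of the files, and all 44 had enough counts to be tested. They comprised 11 fibrillar chains, 8 chains of basement membranes, 9 chains of beaded filaments, anchoring fibrils and related assemblies, 9 FACIT chains (fibril-associated collagens with interrupted triple helices), 3 network-forming chains and 4 transmembrane chains.

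Messenger RNA was sequenced from mouse brains without olfactory bulbs at E18.5, in 10 libraries of 5 genotypes with 2 libraries each. The genotypes were COP1 heterozygous controls (control), COP1 knockouts (KO), COP1 and cJun double knockouts (DKO), COP1, cJun and ETV1 triple knockouts (TKO), and quadruple knockouts that also lacked ETV5 (QKO). COP1 is a ubiquitin ligase, and cJun, ETV1 and ETV5 are transcription factors. Thus the controls carried a COP1 mutation too, and no group was wild type. How and in which cells the genes were deleted, the litters and the sex of the embryos were not stated by the labels.

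Collagens are trimers of chains wound into a triple helix. Fibrillar collagens form the banded fibrils of connective tissue, whereas type IV collagen forms the sheet-like network of basement membranes. In brain, fibrillar collagens are known mainly from the meninges and large vessels, and type IV collagen from the basement membrane around vessels and under the pia. FACIT chains sit on fibril surfaces, and transmembrane collagens are anchored in the cell membrane.

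Libraries held between 31996944 and 54594523 counts, of which the collagens took between 0.148 and 0.194%. Jun was at 14.99 to 16.1 nRPKM in control and KO and at 1.44 to 2.94 in the groups labelled as lacking cJun, where nRPKM is the authors' RPKM adjusted by a size factor of the library. The other targeted genes did not follow their labels as whole-gene levels. Etv1 was at 3.80 and 3.67 nRPKM in TKO and 4.71 and 4.38 in QKO, both labelled as lacking ETV1, against 1.76 and 2.29 in KO and 1.98 and 2.11 in DKO. Etv5 was at 3.97 and 4.11 nRPKM in QKO, labelled as lacking ETV5, against 2.65 and 2.68 in KO. Cop1 was at 4.9995 and 4.74 nRPKM in control and at 3.57 to 4.39 in the groups labelled as lacking COP1. Which exons were deleted was not stated, so these levels do not check the COP1, ETV1 and ETV5 labels, and TKO and QKO are named here by their labels. The X-inactivation RNA Xist was high in control 1 and DKO 1 and low in the other 8 libraries, so only control and DKO mixed a female with a male pattern. The mixed patterns show that control and DKO each held different embryos. For KO, TKO and QKO the labels name no separate litters or animals, so there the spread that p-values measure may be technical. In whole-brain RNA, fewer cells of a type and less RNA per cell cannot be told apart.

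Across the 8 comparisons, 7 of 352 tests of collagens (1.99%) passed an adjusted p of 0.05 (edgeR's quasi-likelihood test with Benjamini-Hochberg adjustment over all 18671 genes tested), against 705 of 149368 tests of all genes (0.472%). They fell on 5 genes, Col5a3, Col19a1, Col27a1, Col4a5 and Col26a1, and 39 collagens passed in no comparison. Of the 5, Col5a3 and Col27a1 encode fibrillar chains, Col4a5 a basement membrane chain and Col19a1 a FACIT chain. The sequences upstream of 4 of these genes are shown because these are the members whose RNA changed. Each is the 250 bases before the annotated start, taken from RefSeq for GRCm38.p6 and printed 5′ to 3′ on the strand of the gene. Capitals mark GGGCGG, the GC box, or its complement CCGCCC. The window of Col5a3 is chr9:20815068-20815317 on the minus strand, Col27a1 at chr4:63215162-63215411 on the plus strand, Col19a1 at chr1:24587438-24587687 on the minus strand and Col4a5 at chrX:141475169-141475418 on the plus strand.
Col5a3: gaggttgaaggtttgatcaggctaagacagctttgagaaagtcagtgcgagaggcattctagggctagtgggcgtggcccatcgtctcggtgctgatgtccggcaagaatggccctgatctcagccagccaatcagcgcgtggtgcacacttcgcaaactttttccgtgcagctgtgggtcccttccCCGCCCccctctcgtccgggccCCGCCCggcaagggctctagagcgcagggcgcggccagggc
Col27a1: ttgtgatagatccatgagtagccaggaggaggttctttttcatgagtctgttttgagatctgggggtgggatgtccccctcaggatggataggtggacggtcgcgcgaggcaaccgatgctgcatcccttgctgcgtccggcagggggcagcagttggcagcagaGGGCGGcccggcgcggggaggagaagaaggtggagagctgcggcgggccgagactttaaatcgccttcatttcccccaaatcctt
Col19a1: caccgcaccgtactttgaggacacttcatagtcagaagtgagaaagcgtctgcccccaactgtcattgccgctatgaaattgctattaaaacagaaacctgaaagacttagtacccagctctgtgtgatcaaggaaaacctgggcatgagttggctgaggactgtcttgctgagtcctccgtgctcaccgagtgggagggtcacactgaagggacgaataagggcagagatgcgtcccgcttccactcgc
Col4a5: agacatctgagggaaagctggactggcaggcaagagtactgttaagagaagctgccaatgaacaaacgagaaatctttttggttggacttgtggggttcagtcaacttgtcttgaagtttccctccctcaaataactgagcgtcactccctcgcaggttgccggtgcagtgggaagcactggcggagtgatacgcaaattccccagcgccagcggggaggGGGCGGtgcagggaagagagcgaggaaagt
The Col5a3 window held 2 GC boxes, those of Col27a1 and Col4a5 held 1 each, and that of Col19a1 held 0. Base composition was 62.8% G and C for Col5a3, 59.6% for Col27a1, 54.0% for Col4a5 and 52.0% for Col19a1. Among all RefSeq windows of this length on both strands, 32.7% held GGGCGG, against 22 of 38 windows (57.9%) of the 35 collagen genes that had an entry. The letters TGANTCA, the site letters known for AP-1 dimers that contain Jun, occurred in 6.75% of all 32851 windows and in 1 of the 38 collagen windows, that of Col6a1. The letters CCGGAAG, a core known for ETS factors such as ETV1 and ETV5, occurred in 6.91% of all windows and in 0 of the 38. None of the 4 windows shown held either; these letter matches describe the windows only. Col26a1 had no entry.

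On the nRPKM scale, which is per length and allows genes to be compared, 7 members had a mean of at least 10, 22 a mean between 1 and 10, and 15 a mean under 1. Col4a1 led with a mean of 40.7 nRPKM over the 10 libraries, followed by Col1a2 (36.5), Col4a2 (31.4), Col3a1 (30.4) and Col1a1 (25.3). These 5 held 57.4% of the summed collagen level: the chains of type I and III fibrils and the common chains of type IV collagen. Neighbours in this order overlapped, since Col4a1 ranged from 33.8 to 47.7 and Col1a2 from 29.8 to 40.2 nRPKM.

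Next came Col26a1, a collagen with an EMI domain (mean 13.9, range 10.7 to 15.1 nRPKM), and Col9a3, a type IX chain (12.7, 10.5 to 14.1). The type VI chains Col6a1 and Col6a2, which build beaded filaments, had means of 9.21 and 8.82 nRPKM. Col9a2 followed with 7.32. The transmembrane members Col25a1, known from amyloid plaques, and Col23a1 ranged from 4.18 to 5.35 and from 3.20 to 4.70 nRPKM. At the other end stood Col10a1, the collagen of hypertrophic cartilage (0.0583), Col17a1, the hemidesmosome collagen of epithelia (0.0723), Col6a6 (0.158) and Col4a3 (0.162).

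**Figure D1:**
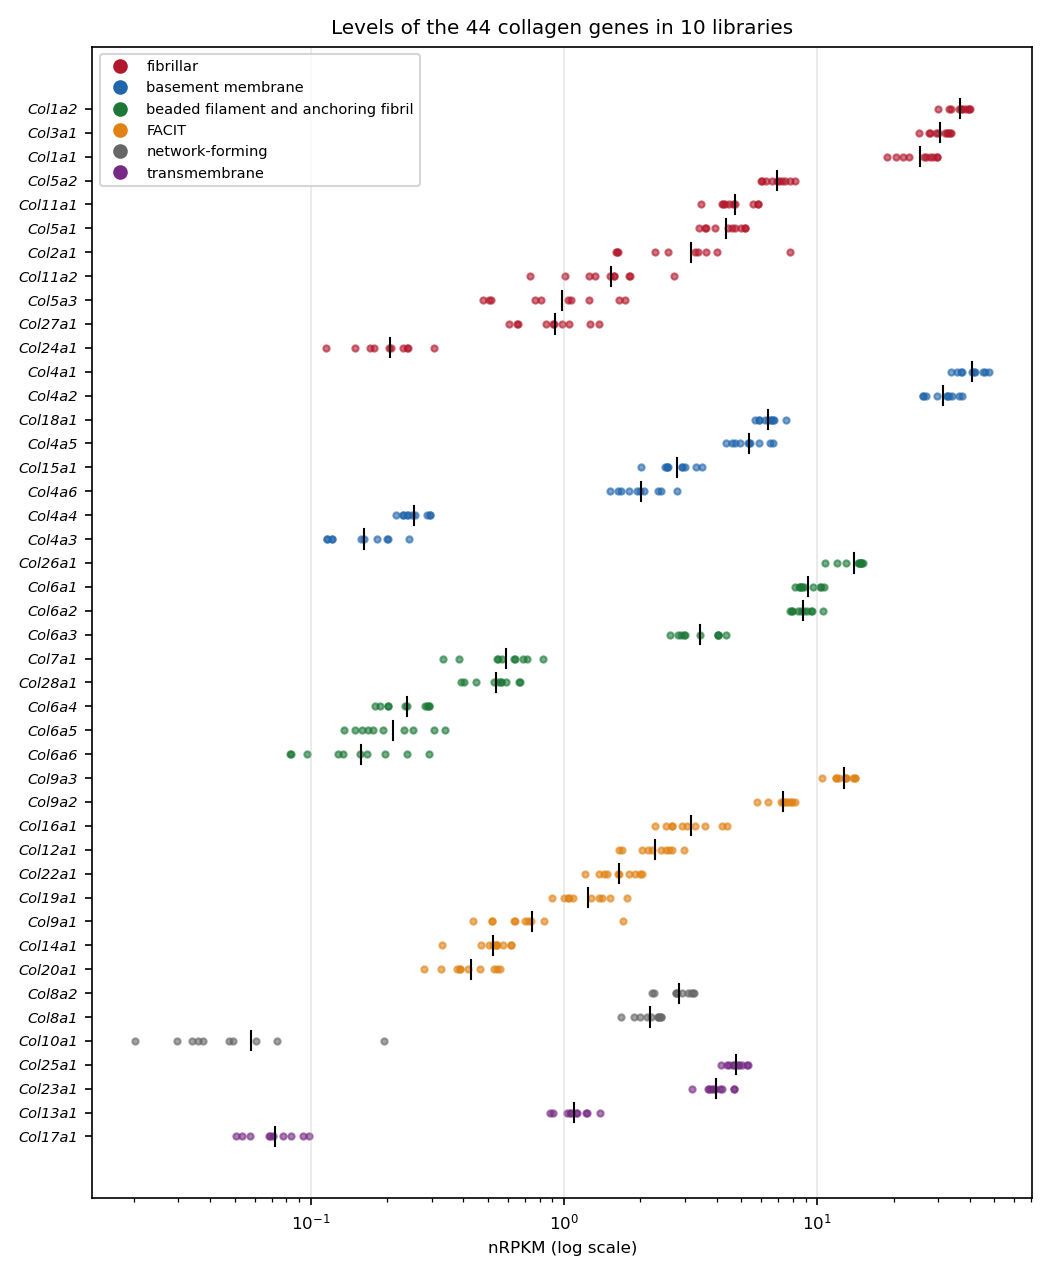
Level of each of the 44 collagen genes in nRPKM on a log scale, grouped by class; each point is 1 of the 10 libraries and each black bar the mean. Means run from 0.0583 nRPKM for Col10a1 to 40.7 for Col4a1, and both the fibrillar and the basement membrane class hold members across most of this range.

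Most members varied little between libraries. The highest library was a median of 1.67 times the lowest, from 1.28 times for Col25a1 to 9.58 times for Col10a1, and 11 members exceeded 2 times. KO 2 was the highest library for 15 members. QKO 2 was the lowest for 16 and DKO 1 for 10. Long genes in general also differed between libraries. The longest of 6 equal groups of genes by length held 3112 genes, among them 32 of the collagens. In that group KO 2 had the highest median log2 value (0.08) and DKO 1 the lowest (−0.09). QKO 2 and TKO 2 were at −0.04 and TKO 1 at 0.06. The part of gene length in these counts of members was not tested. Genes whose products join in 1 trimer kept steady ratios in several cases: Col4a1 over Col4a2 stayed between 1.26 and 1.38, and Col6a1 over Col6a2 between 0.964 and 1.12. Col1a1 over Col1a2 ranged from 0.588 to 0.772. The ratio moved more for Col11a1 over Col11a2 (2.15 to 4.72) and for Col9a1 over Col9a2 (0.0570 to 0.216).

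Among the fibrillar collagens, Col5a3 had the largest log2 difference of KO from control. Col5a3 (gene ID 53867) encodes the third chain of type V collagen, a fibrillar collagen that takes part in the start and width of fibrils. It was at 0.514 and 0.507 nRPKM in the controls, 1.73 and 1.65 in KO, 0.808 and 1.26 in DKO, 1.04 and 1.06 in TKO, and 0.765 and 0.480 in QKO. Both KO libraries lay above all others, and the QKO libraries spanned the controls. The group means were 0.510 ± 0.00500 (SD, n = 2) in control, 1.69 ± 0.0561 in KO and 0.623 ± 0.202 in QKO. Col5a3 rose 3.34-fold in KO over control, a log2 fold change of 1.74 ± 0.22 (SE), with an adjusted p of 0.00521 by edgeR's quasi-likelihood test. It was 2.74-fold lower in QKO than in KO (log2 −1.46 ± 0.22, adjusted p = 0.00709 by edgeR).

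Between these ends, the Col5a3 differences from control had log2 values of 1.00 ± 0.23 in DKO (edgeR adjusted p = 0.133) and 1.05 ± 0.23 in TKO (0.158), and in QKO of 0.28 ± 0.23 (0.886). The differences of DKO from KO (log2 −0.74 ± 0.21, edgeR adjusted p = 0.192) and of QKO from TKO (−0.76 ± 0.22, 0.354) did not pass either. Over 19 other settings, the adjusted p of the difference from control ranged from 0.00354 to 0.617 in DKO and from 0.00334 to 0.784 in TKO. The call of KO over control was lost without control 1 (edgeR adjusted p = 0.0806), without control 2 (0.0741) or without KO 1 (0.0592), with log2 fold changes of 1.74, 1.72 and 1.70. The call of QKO under KO was lost without KO 1 (edgeR adjusted p = 0.0655, log2 −1.41). Of the other type V chains, Col5a1 was at 4.62 and 4.45 nRPKM in control, 4.74 and 5.18 in KO, 3.61 and 3.63 in DKO, 4.97 and 3.96 in TKO, and 5.17 and 3.41 in QKO. For Col5a1 as well both KO libraries were above both controls, by a log2 difference of 0.14 ± 0.16 (edgeR adjusted p = 0.809), and both DKO libraries were below them. Col5a2 was at 6.94 and 7.43 nRPKM in control, 6.27 and 8.16 in KO, 5.97 and 6.63 in DKO, 7.77 and 6.07 in TKO, and 7.06 and 7.22 in QKO. The DKO values of Col5a2 were below both controls, and the KO and TKO libraries spanned them. Col5a2 passed the test in 0 of the 8 comparisons.

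Col27a1 was the fibrillar chain that was lower in DKO than in KO by the test. Col27a1 (gene ID 373864), known from the thin fibrils of cartilage, was at 0.903 and 0.852 nRPKM in control, 1.26 and 1.38 in KO, 0.652 and 0.607 in DKO, 0.982 and 0.909 in TKO, and 1.04 and 0.655 in QKO. The KO libraries were the highest of all 10 and the DKO libraries the lowest. Means were 1.32 ± 0.0815 in KO and 0.630 ± 0.0314 in DKO (SD, n = 2). Col27a1 was 2.10-fold lower in DKO than in KO (log2 −1.07 ± 0.18, adjusted p = 0.0228 by edgeR's quasi-likelihood test).

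This Col27a1 call rested on most of the libraries, although the log2 fold change stayed between −1.18 and −0.89 under every setting run. It was lost without KO 1 (edgeR adjusted p = 0.0876), KO 2 (0.214), DKO 1 (0.0984), DKO 2 (0.0815), control 2 (0.0501), TKO 1 (0.0585) or TKO 2 (0.0532). It was also lost with Xist as a covariate (0.0659) and without the libraries of high Xist (0.119).

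No call fell on the abundant fibrillar chains, Col1a1, Col1a2 and Col3a1. Col1a1 and Col1a2 together form type I collagen, the main fibril collagen, and Col3a1 forms type III. Col1a1 (gene ID 12842) was at 26.4 and 28.6 nRPKM in control, 29.6 and 29.7 in KO, 21.9 and 20.4 in DKO, 27.0 and 23.1 in TKO, and 27.7 and 18.9 in QKO. The DKO libraries were below all control, KO and TKO libraries, and QKO 2 was the lowest of all. The difference of DKO from KO was −0.50 ± 0.14 on the log2 scale (edgeR adjusted p = 0.196). Col1a2 (gene ID 12843) was at 39.7 and 40.2 nRPKM in control, 38.3 and 39.4 in KO, 37.1 and 33.2 in DKO, 37.1 and 33.9 in TKO, and 36.3 and 29.8 in QKO. Its libraries in DKO, TKO and QKO were all below those in control and KO. Its log2 difference of QKO from control was −0.27 ± 0.09 (edgeR adjusted p = 0.552). Col3a1 (gene ID 12825) was at 33.6 and 33.4 nRPKM in control, 29.9 and 32.7 in KO, 29.3 and 25.2 in DKO, 32.0 and 27.8 in TKO, and 32.4 and 27.5 in QKO. Every Col3a1 value outside the controls was below both controls. None of these 3 chains passed the test in any of the 8 comparisons.

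**Figure D2:**
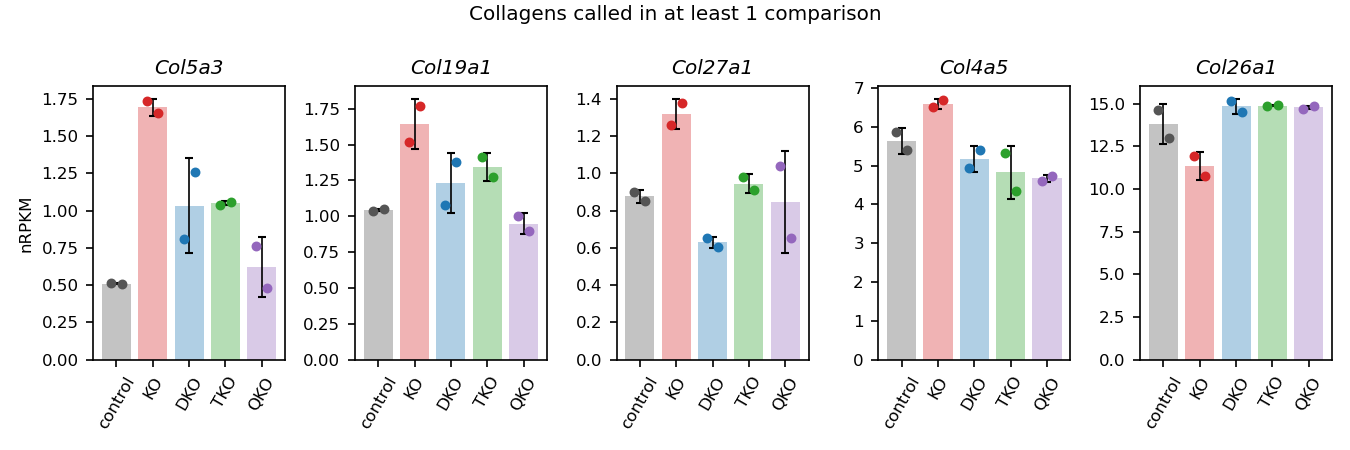
Levels in nRPKM of the 5 collagens that passed the test in at least 1 comparison; bars are group means, error bars SD (n = 2) and points the libraries. Col5a3 and Col19a1 are highest in KO and near the controls in QKO, with Col5a3 at 1.69 in KO and 0.510 in control.

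Col19a1 was the FACIT chain that changed. Col19a1 (gene ID 12823) is known from subsets of neurons, where its product takes part in the formation of inhibitory synapses. It was at 1.04 and 1.05 nRPKM in control, 1.52 and 1.77 in KO, 1.08 and 1.38 in DKO, 1.41 and 1.27 in TKO, and 0.999 and 0.899 in QKO. KO was the highest group and QKO the lowest, with no overlap of either with any other group. Col19a1 rose 1.58-fold in KO over control (log2 0.66 ± 0.12, adjusted p = 0.0397 by edgeR's quasi-likelihood test, n = 2). It was 1.74-fold lower in QKO than in KO (log2 −0.80 ± 0.12, adjusted p = 0.00968 by edgeR).

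The rise of Col19a1 in KO was lost in 6 of 10 edgeR fits that left out a library: control 1 (adjusted p = 0.336), control 2 (0.238), KO 1 (0.103), KO 2 (0.330), TKO 1 (0.0836) and TKO 2 (0.0792). It was also lost with Xist as a covariate (0.154), without the libraries of high Xist (0.108) and with the HOX genes as a covariate (0.0709). The lower value in QKO was lost without KO 2 (edgeR adjusted p = 0.101) or QKO 2 (0.0868).

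The type IX chains are FACITs that coat cartilage fibrils. Col9a1 (gene ID 12839) was at 0.438 and 0.522 nRPKM in control, 0.703 and 1.71 in KO, 0.741 and 0.719 in DKO, 0.641 and 0.831 in TKO, and 0.633 and 0.518 in QKO. KO 2 alone was above 1 nRPKM. Its log2 difference of KO from control, 1.31 ± 0.34, did not pass (edgeR adjusted p = 0.142), and was 0.55 without KO 2 and 1.83 without KO 1. Col20a1, a FACIT with a mean of 0.428 nRPKM, had log2 differences of −0.69 ± 0.22 for QKO against TKO (edgeR adjusted p = 0.457) and −0.55 ± 0.22 for QKO against control (0.657).

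Of the 8 basement membrane chains, 1 passed the test in any comparison, Col4a5. Col4a1 and Col4a2 encode the chains of the common type IV network. Col4a1 (gene ID 12826) was at 47.7 and 40.9 nRPKM in control, 42.0 and 45.9 in KO, 37.0 and 44.9 in DKO, 41.4 and 33.8 in TKO, and 37.4 and 35.7 in QKO. Only QKO lay wholly below control and KO. Col4a2 (gene ID 12827) was at 37.2 and 32.4 nRPKM in control, 33.2 and 36.1 in KO, 26.9 and 34.2 in DKO, 32.5 and 26.2 in TKO, and 29.6 and 26.2 in QKO. It likewise lay wholly below control and KO in QKO alone. Against control, the log2 differences in QKO were −0.28 ± 0.12 for Col4a1 (edgeR adjusted p = 0.681) and −0.32 ± 0.13 for Col4a2 (0.665).

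Col18a1 (gene ID 12822), whose product carries the fragment endostatin, was at 6.76 and 6.68 nRPKM in control, 6.55 and 7.51 in KO, 6.54 and 6.19 in DKO, 6.40 and 5.67 in TKO, and 5.89 and 5.90 in QKO. All DKO, TKO and QKO values were below both controls. It passed the test in 0 of the 8 comparisons.

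Col4a5 (gene ID 12830), on the X chromosome, encodes the chain whose loss is known to cause Alport syndrome. It was at 5.87 and 5.40 nRPKM in control, 6.50 and 6.68 in KO, 4.94 and 5.41 in DKO, 5.31 and 4.35 in TKO, and 4.61 and 4.74 in QKO. KO was above every other library and QKO below every control and DKO library. The means were 6.59 ± 0.126 in KO and 4.68 ± 0.0880 in QKO (SD, n = 2). Col4a5 was 1.42-fold lower in QKO than in KO (log2 −0.50 ± 0.09, adjusted p = 0.0258 by edgeR's quasi-likelihood test).

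The Col4a5 call was lost without KO 1 (edgeR adjusted p = 0.157), KO 2 (0.191), QKO 1 (0.0932) or QKO 2 (0.121), and with the HOX genes as a covariate (0.0645). Its neighbour Col4a6, which lies head to head with it, was at 2.34 and 1.93 nRPKM in control, 2.41 and 2.80 in KO, 1.64 and 1.998 in DKO, 2.06 and 1.67 in TKO, and 1.81 and 1.52 in QKO. For Col4a6 as well the KO libraries were the highest of all. The difference of QKO from KO was −0.66 ± 0.15 (log2, edgeR adjusted p = 0.0627).

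Col26a1 moved the other way. Col26a1 (gene ID 140709) was at 14.6 and 13.0 nRPKM in control, 11.9 and 10.7 in KO, 15.1 and 14.5 in DKO, 14.9 and 14.9 in TKO, and 14.7 and 14.8 in QKO. The KO libraries were the lowest of all 10. Col26a1 was 1.29-fold higher in QKO than in KO (log2 0.37 ± 0.08, adjusted p = 0.0445 by edgeR's quasi-likelihood test, n = 2). The difference of KO from control was −0.27 ± 0.08 (edgeR adjusted p = 0.198) and that of DKO from KO 0.38 ± 0.08 (0.0660). The call of QKO over KO was lost without KO 1 (edgeR adjusted p = 0.114), KO 2 (0.315), TKO 1 (0.0809), TKO 2 (0.0814), QKO 1 (0.0913) or QKO 2 (0.152), and with the HOX covariate (0.0772).

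Among the scarce chains, Col6a5 and Col6a6 encode further type VI chains. Col6a5 was at 0.176 and 0.159 nRPKM in control, 0.254 and 0.234 in KO, 0.135 and 0.192 in DKO, 0.307 and 0.339 in TKO, and 0.149 and 0.169 in QKO. The TKO libraries were the highest of all. The differences of TKO from DKO (log2 1.01 ± 0.19, edgeR adjusted p = 0.115) and of QKO from TKO (−1.02 ± 0.19, 0.0674) did not pass. Col6a6 had a log2 difference of 1.06 ± 0.35 for TKO against DKO (edgeR adjusted p = 0.334) and of 0.59 ± 0.31 for QKO against control (0.782). Col10a1 counts were between 3 and 8 in 9 libraries and 31 in DKO 1. Its fitted differences, 2.01 ± 0.56 for DKO against KO (edgeR adjusted p = 0.184), −1.98 ± 0.58 for TKO against DKO (0.293) and 0.69 ± 0.67 for QKO against control (0.921), therefore rest on few counts, and the first 2 on DKO 1.

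Library KO 2 stood apart in some collagens known from cartilage, Col2a1, Col9a1 and Col11a2. Col2a1 (gene ID 12824), the main fibril collagen of cartilage, was at 4.01 and 3.30 nRPKM in control, 1.60 and 7.80 in KO, 1.63 and 1.62 in DKO, 2.58 and 2.29 in TKO, and 3.37 and 3.63 in QKO. KO 2 was the highest of all libraries and KO 1 the lowest. Col11a2 (gene ID 12815), a fibrillar chain of the same fibrils, was at 1.57 and 1.33 nRPKM in control, 1.58 and 2.71 in KO, 0.734 and 1.25 in DKO, 1.80 and 1.52 in TKO, and 1.82 and 1.01 in QKO. Again KO 2 was highest. KO 2 stood at 3.02 times the median of the other 9 libraries for Col2a1, 2.66 times for Col9a1, 1.78 times for Col11a2 and 1.30 times for Col11a1, where QKO 1 was at the same level. Col27a1 was also highest in KO 2, at 1.52 times that median, with KO 1 next. Members not named here for cartilage were above that median in KO 2 too, such as Col5a3 (2.05 times), Col19a1 (1.63), Col16a1 (1.51) and Col4a6 (1.45). Others were below it, such as Col8a2 (0.764 times) and Col26a1 (0.731). The remaining collagens named here as known from cartilage did not stand apart there. KO 2 was at 1.07 times that median for Col9a2, 1.10 times for Col9a3 and 0.623 times for Col10a1.

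The cartilage matrix protein matrilin-1 (Matn1) was at 1.81 nRPKM in KO 2 and between 0.0419 and 0.133 in the others. Of 12 cartilage and bone markers, 4 were highest in KO 2, 1 (Bglap) was at 0 in some libraries, and their summed level was 9.15 nRPKM there against 5.42 to 7.26 elsewhere. Without Matn1 the sum was 7.34 nRPKM in KO 2 against 5.35 to 7.22 elsewhere. Alpl alone was at 4.31 nRPKM in KO 2, so this sum cannot show the scarcer markers. KO 2 was also highest for Matn3 (0.224 nRPKM, 3.22 times the median of the other 9 libraries), Acan (0.394, 2.11 times) and Comp (0.105, 1.998 times). Epyc (1.94 times) and Cnmd (1.32 times) were above that median in KO 2, but within the range of the other libraries. Among bone markers, Ibsp (0.555 times the median of the other libraries), Bglap (0.545), Sp7 (0.495) and Runx2 (0.986) were not raised in KO 2. Dmp1 (1.38 times that median) and Alpl (1.07) were above it there, but within the range of the other libraries. The part of cartilage in the collagen differences was not tested. Fits without KO 1 or KO 2 hold no spread between KO libraries, so only their log2 differences are given here. The Col2a1 difference of KO from control was 0.36 ± 0.47 on the log2 scale with both libraries (edgeR adjusted p = 0.841), 1.10 without KO 1 and −1.19 without KO 2. That of DKO from KO was −1.52 ± 0.50 with both (edgeR adjusted p = 0.246), −2.26 without KO 1 and 0.02 without KO 2. That of Col11a2 in DKO against KO was −1.13 ± 0.32 with both (edgeR adjusted p = 0.187) and −0.69 without KO 2. For Col2a1 the direction thus depended on which KO library was used.

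**Figure D3:**
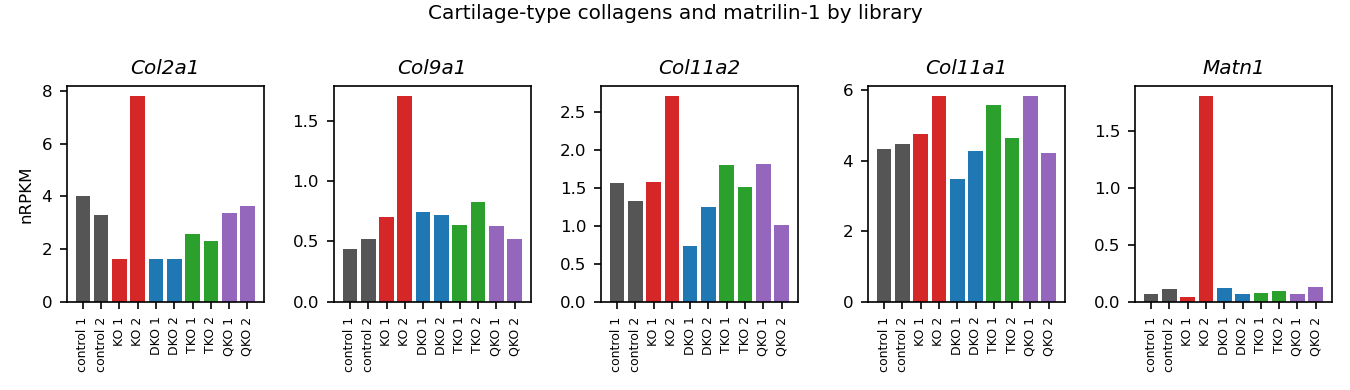
Level in nRPKM of the cartilage-type collagens Col2a1, Col9a1, Col11a2 and Col11a1 and of Matn1 in each library; each bar is 1 library. KO 2 is highest in each panel, at 7.80 for Col2a1 and 1.81 for Matn1.

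In KO against control, 2 of the 44 collagens passed the test (4.55%), Col5a3 and Col19a1, both higher; over all genes tested 0.734% passed, and 0.503% were higher. At an unadjusted p under 0.05 there were 13 (29.5%, against 10.4% of all genes). The median log2 difference was 0.14 over the 11 fibrillar chains (8 positive, 3 negative) and 0.06 over the 8 basement membrane chains (6 positive, 2 negative), beside 52.1% of all genes positive. The KO brains also had less RNA of HOX genes of the caudal hindbrain, which summed to 13.4 and 18.3 nRPKM in control against 1.76 and 0.737 in KO. With the HOX level as a covariate the fibrillar median became 0.75 (10 positive, 1 negative), and 0.29 over the basement membrane chains. The HOX sums of control and KO did not overlap, so this fit cannot separate the HOX level from genotype. Without KO 2 the fibrillar median was 0.07, and without the high-Xist libraries 0.24. Markers of oligodendrocyte precursors summed to 81.7 and 92.5 nRPKM in control and to 189 and 162.5 in KO, with 6 of 6 higher by the test. Of 8 markers of astrocytes and radial glia, 6 were higher by the test, with a median log2 difference of 0.58. All 8 together summed to 954 and 904 nRPKM in control and 971 and 939 in KO. Fabp7 made up most of these sums and went the other way, with 655 and 612 nRPKM in control and 523 and 497 in KO. The part of these cell types in the collagen differences was not tested.

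In DKO against KO, which asks what the further loss of cJun changed, Col27a1 alone passed (2.27% of the 44, against 0.568% of all genes in either direction and 0.37% lower). At an unadjusted p under 0.05 there were 20 (45.5%, against 13.8% of all genes). All 11 fibrillar chains had negative log2 differences, with a median of −0.50, and 7 had an unadjusted p under 0.05 (8.62% of all genes had one and were lower). In the basement membrane class 6 of 8 were negative, with a median of −0.17. Over all genes 50.6% were negative. Without KO 2 the fibrillar class had 9 negative and 2 positive differences and a median of −0.39. The basement membrane median became −0.39 without DKO 2 and −0.10 with offsets for gene length. Of 8 astrocyte and radial glia markers, 4 were lower by the test (median log2 difference −0.53, sums of 840 and 852 nRPKM in DKO). Fabp7, which made up most of the sums, was instead above both KO libraries, at 543 and 554 nRPKM in DKO. All 6 oligodendrocyte precursor markers were lower at an unadjusted p under 0.05 and 0 after adjustment (edgeR; median −0.42; sums of 135 and 120). Erythroid markers summed to 1202 and 1460 nRPKM in DKO against 434 and 508 in KO, with 6 of 8 higher by the test. The part of these cell types in the collagen differences was not tested.

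In TKO against DKO, 0 of 44 collagens passed (edgeR; 0.0911% of all genes), 0 by DESeq2 and 0 by limma-voom, and 11 had an unadjusted p under 0.05 (11.9% of all genes did). All 11 fibrillar chains were positive with a median of 0.31; without TKO 1 they were 9 positive and 2 negative with a median of 0.13. Of 8 erythroid markers, 4 were lower by the test (median −1.02), with sums of 625 and 641 nRPKM in TKO. Of 11 HOX genes, 7 were higher at an unadjusted p under 0.05 and 0 after adjustment (edgeR; median 1.66), with sums of 8.13 and 6.11 nRPKM in TKO against 1.87 and 3.69 in DKO. Their part in the collagen differences was not tested. The basement membrane class had a median of −0.06, which was 0.07 with all 8 positive without TKO 2. In QKO against TKO, 0 passed (edgeR; 0.289% of all genes), 0 by limma-voom and 1, Col23a1, by DESeq2, and 7 had an unadjusted p under 0.05, all lower (15.9%, against 5.78% of all genes in either direction and 3.58% lower). The class medians were −0.11 for fibrillar and −0.04 for basement membrane chains, and neither kept its direction: without TKO 1 they were 0.02 and 0.10, and without QKO 2 the fibrillar median was 0.13. Over all settings they ranged from −0.40 to 0.13 and from −0.18 to 0.10. Col23a1, a transmembrane collagen, was at 4.69 and 4.70 nRPKM in TKO and 3.75 and 3.20 in QKO, with a log2 difference of −0.44 ± 0.09 (edgeR adjusted p = 0.114).

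**Figure D4:**
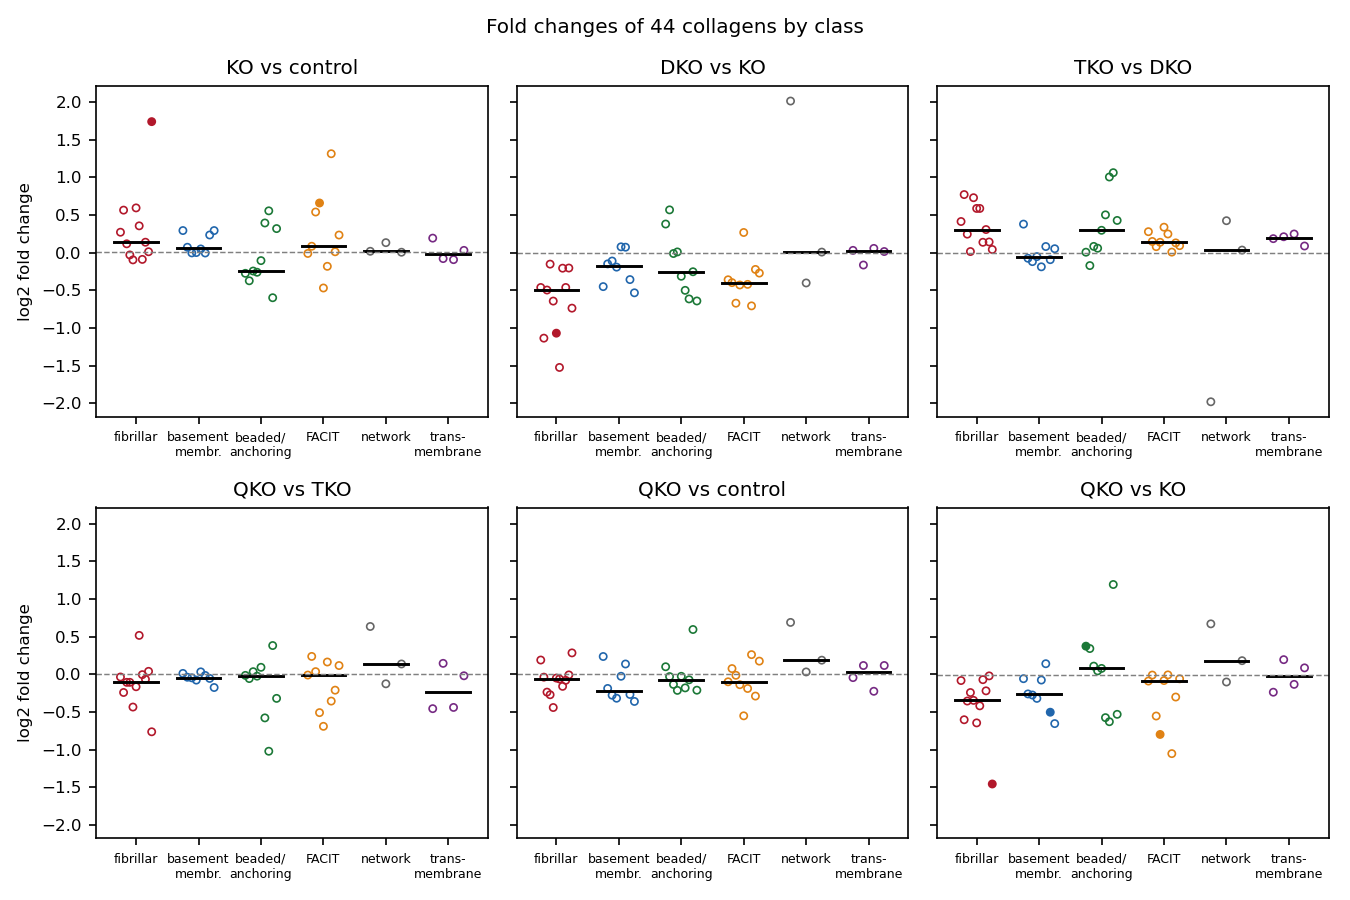
Log2 fold change of each of the 44 collagens in 6 comparisons, by class; filled points passed the test, open points did not, and black bars are class medians. In DKO against KO all 11 fibrillar chains lie below 0 with a median of −0.50, while the basement membrane median is −0.17.

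Against the control, the 3 combined knockouts gave 0 calls each by edgeR. QKO against control had 9 collagens with an unadjusted p under 0.05, all lower (20.5%, against 6.89% of all genes in either direction and 3.5% lower; 0.236% of all genes passed after adjustment), and 0 by DESeq2 or limma-voom. DKO against control had 12 (27.3%, against 8.14%; 0.423% passed after adjustment), with 2 passing by DESeq2, Col5a3 and Col22a1, and 0 by limma-voom. TKO against control had 7 (15.9%, against 10.3%; 0.15% passed after adjustment), with Col5a3 passing by DESeq2 and 0 by limma-voom. The fibrillar median was −0.06 in QKO, −0.32 in DKO and −0.01 in TKO, and the basement membrane median −0.23, −0.12 and −0.17. The QKO fibrillar median was −0.41 without QKO 1 and 0.02 without QKO 2, so its direction turned with the library left out; it was 0.03 with the HOX covariate. In DKO the fibrillar median was 0.06 with the HOX covariate, and the basement membrane median 0.04 without the high-Xist libraries. In TKO the fibrillar median was −0.19 without TKO 1, 0.12 without TKO 2, 0.01 without control 1 and 0.13 with the HOX covariate. The HOX sums of DKO and TKO were all below both controls, so the fits with this covariate cannot separate the HOX level from genotype there.

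In QKO against KO, which differ by the loss of cJun, ETV1 and ETV5, 4 of 44 passed (9.09%, against 1.29% of all genes): Col5a3, Col19a1 and Col4a5 lower (0.932% of all genes were) and Col26a1 higher (0.353%). At an unadjusted p under 0.05 there were 17 (38.6%, against 11.5% of all genes). All 11 fibrillar chains were negative with a median of −0.35, and 7 of the 8 basement membrane chains with a median of −0.27. The fibrillar median was −0.16 without KO 2 (7 negative) and −0.09 without QKO 2 (8 negative). The calls lost when a library was left out are given above for each gene. Oligodendrocyte precursor markers summed to 82.3 and 74.8 nRPKM in QKO, with 6 of 6 lower than in KO by the test. Of 8 astrocyte and radial glia markers, 6 were lower by the test (median −0.72, sums of 833 and 866 nRPKM in QKO). Fabp7, which made up most of the sums, was instead above both KO libraries, at 584 and 608 nRPKM in QKO. All 11 HOX genes were higher at an unadjusted p under 0.05 and 0 after adjustment (edgeR; median 2.74), although the QKO libraries differed, with sums of 13.7 and 2.20 nRPKM. The part of these genes' cells in the collagen differences was not tested. Comparisons that share the KO or control libraries are not independent of each other.

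Summed levels set the classes side by side. The fibrillar chains summed to 123 and 125 nRPKM in control, 120.0 and 135 in KO, 105 and 98.2 in DKO, 121 and 105 in TKO, and 122 and 97.0 in QKO. The basement membrane chains summed to 103 and 90.3 nRPKM in control, 94.0 and 103 in KO, 79.4 and 95.8 in DKO, 91.0 and 75.1 in TKO, and 83.3 and 76.9 in QKO. DKO lay below control and KO in the fibrillar sum, and QKO below both in the basement membrane sum. The ratio of fibrillar to basement membrane sum was between 1.03 (DKO 2) and 1.46 (QKO 1). On the log2 scale it differed from control by 0.01 in KO, −0.14 in DKO, 0.09 in TKO and 0.08 in QKO, each less than the SD of the control libraries, 0.15. The SD within the knockout groups was 0.03 in KO, 0.26 in DKO, 0.06 in TKO and 0.15 in QKO (n = 2).

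**Figure D5:**
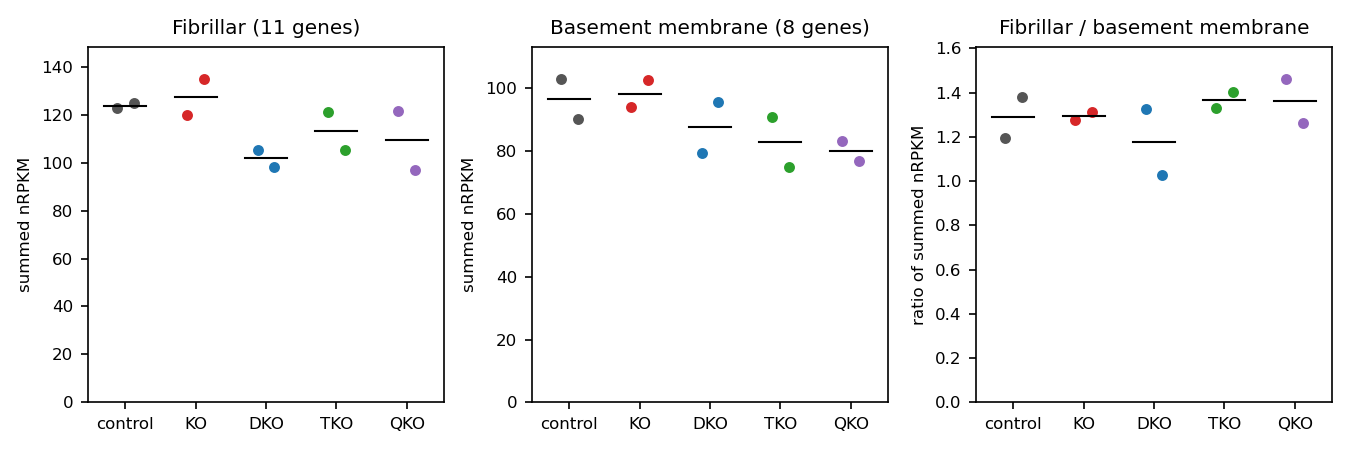
Summed nRPKM of the fibrillar and of the basement membrane chains and their ratio, by genotype; points are libraries and bars group means. The ratio lies between 1.03 and 1.46 and the range of each knockout genotype overlaps that of control, 1.19 to 1.38.

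Markers of cell types known to make these collagens were measured beside them. Meningeal fibroblast markers summed to 364 to 500.1 nRPKM, lowest in KO 2 and highest in TKO 2. By edgeR, 0 of 14 passed in any of the 8 comparisons, and 0 to 3 a comparison had an unadjusted p under 0.05. These markers summed to 499 and 452 nRPKM in control and to 384 and 364 in KO. Their median log2 difference was −0.24 in KO against control, with 3 lower and 0 higher at an unadjusted p under 0.05 (edgeR). It was 0.13 in DKO against KO, 0.13 in TKO against DKO, −0.12 in QKO against TKO and 0.12 in QKO against KO. Endothelial markers summed to 96.4 to 109.6 nRPKM and mural markers to 80.3 to 93.1, with 0 passing in any comparison (edgeR; 0 to 1 and 0 to 2 had an unadjusted p under 0.05). Their part in the collagen differences was not tested.

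Genes that act on collagens are given next, each list's share of calls to be read against that of all genes. Of 33 genes for collagen synthesis, folding and crosslinking, P4ha3, a prolyl hydroxylase subunit, was lower in DKO than in KO (log2 −0.76 ± 0.14, edgeR adjusted p = 0.0413), 3.03% of the list against 0.568% of all genes. Sparc, a collagen-binding matrix protein, was lower in QKO than in KO (−0.41 ± 0.07, edgeR adjusted p = 0.0130), again 3.03% against 1.29%. The other 31 passed in no comparison, and the list medians were between −0.11 and 0.05. The collagen breakdown list also named Timp genes, which encode inhibitors of metalloproteinases. Of its 10 tested genes, Mmp15, a membrane-bound matrix metalloproteinase, was higher in KO than in control (0.47 ± 0.09, edgeR adjusted p = 0.0377). Mmp15 was lower in QKO than in KO (−0.68 ± 0.09, edgeR adjusted p = 0.00293). This is 1 gene of 10, against 0.734% and 1.29% of all genes.

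Of 10 collagen receptor genes, 0 passed in any comparison (edgeR), with medians between −0.19 and 0.09 and between 0 and 3 genes at an unadjusted p under 0.05. Of 17 other basement membrane genes, Smoc1, a SPARC-related protein, was lower in QKO than in KO (−0.46 ± 0.06, edgeR adjusted p = 0.00474), 5.88% of the list against 1.29% of all genes. Of 16 other fibril-associated matrix genes, elastin (Eln) was lower in QKO than in control (−0.58 ± 0.09, edgeR adjusted p = 0.0271) and than in KO (−0.49 ± 0.09, 0.0232), 6.25% of the list against 0.236% and 1.29% of all genes.

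Collagen transcripts are long: 32 of the 44 fell in the longest of 6 equal groups of genes by length. In that group of 3112 genes the median log2 difference was 0.05 in KO against control, −0.09 in DKO against KO, 0.06 in TKO against DKO and −0.05 in QKO against KO. With offsets that remove this trend, the 7 calls were kept, with Col27a1 at −0.89 (edgeR adjusted p = 0.0251), and Col26a1 in DKO against KO and Col4a6 in QKO against KO passed as well. The fibrillar chains then had a median of −0.46 in DKO against KO (11 negative) and 0.24 in TKO against DKO (10 positive, 1 negative).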

How the data were processed

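Polyadenylated RNA from 10 brain samples was sequenced. Reads were aligned with GSNAP to NCBIM37, per the submitters' processing notes; which annotation release and strand setting were used is not given in the sources used here, so reads of overlapping antisense genes cannot be told apart. The deposited count gives uniquely aligned reads per gene model, per the file headers. The other deposited value is RPKM adjusted by a size factor (nRPKM), per the file headers. RefSeq GRCm38.p6 named 24998 of 28059 Entrez identifiers (89.1%, holding 95.8% of counts).

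Tests on the counts used edgeR 4.0.16 under R 4.3.3 (quasi-likelihood, TMM, filterByExpr, 5 group means over all 10 libraries, 5 residual degrees of freedom) in 8 comparisons, adjusted by Benjamini-Hochberg over 18671 genes; 9388 identifiers were set aside. Each log2 fold change has a standard error computed from the F statistic; nRPKM are given as mean ± SD. A floor of 3 counts corresponded to 0.055 to 0.0938 CPM, counts rescaled to equal library totals, for counting error only. Libraries of a group differed beyond sampling noise (chi-square per degree of freedom 7.51 to 19.5). On data simulated for KO against control with 18671 genes, the test recovered 90% of 100 genes changed by a log2 of 1 and 97% of 100 changed by 2, with 10 false among 197 calls. The simulation gave every gene the same coefficient of variation between libraries, 0.08, and changed genes in KO only. It therefore does not give the share recovered among genes of larger spread, such as Col2a1.

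The members and lists were chosen with earlier results of these data known. Collagens passing in any comparison, and the 4 fibrillar and 4 basement membrane members of highest level, are given in every library; the 3 largest fold changes per main comparison (KO against control, DKO against KO, TKO against DKO, QKO against TKO, QKO against control) are given whether or not they passed. Col4a6, Col23a1 and some other members were named after their values were seen. Alternatives were DESeq2 1.42.0, limma-voom (limma 3.58.1), median-of-ratios factors, other count filters, Xist or HOX covariates, no high-Xist libraries (Xist above 100 CPM), each library left out and, added later, offsets over 20 bins of gene length. The class ratio was also computed from summed CPM and with type IV chains only.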

Additional observations from a re-analysis of the deposited data

How the results depend on the processing

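The number of collagens passing in a comparison moved with the processing, and the cause was not tested. In brackets stands the share of all genes passing under that setting. With no filter on low counts it was 4 in KO against control (1.21%), 8 in DKO against KO (1.35%), 1 in TKO against DKO (0.640%), 3 in QKO against TKO (0.644%), 2 in DKO against control (0.906%), 2 in TKO against control (0.584%) and 9 in QKO against KO (1.96%). With DESeq2 it was 3 in KO against control (1.29%), 3 in DKO against KO (1.22%) and 6 in QKO against KO (1.87%). It was also 1 in QKO against TKO (0.536%), 2 in DKO against control (0.755%) and 1 in TKO against control (0.471%) with DESeq2. With Xist as a covariate, or without the libraries of high Xist, it was 1 in KO against control (0.332% and 0.211%) and 0 in DKO against KO (0.343% and 0.332%). With the HOX covariate it was 3 in KO against control (2.07%), 11 in DKO against KO (3.88%) and 6 in QKO against KO (2.23%). It was 1 each in QKO against TKO (0.423%), DKO against control (0.145%) and TKO against control (2.04%). The HOX sums of KO did not overlap those of control or DKO, so these fits cannot separate the HOX level from genotype. With gene-length offsets, chosen after seeing the data, the number passing was 2 in DKO against KO (0.637%) and 5 in QKO against KO (1.72%). Fits with 1 library left out are not counted here, because a library left alone in its group was assumed to vary like the others. The calls lost under those fits are given above for each gene. QKO against control kept 0 under all settings run. No called member reversed its direction. Class medians under these settings were also added after seeing the data. No paired analysis was possible because the labels give no replicate numbers. Depth limited the scarcest member most, Col10a1, with 3 to 31 counts a library.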
